A study of Mus musculus with 8 samples.

Results

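The Hox genes examined here were the 39 protein-coding genes of the GENCODE M21 mouse annotation whose symbol is Hoxa, Hoxb, Hoxc or Hoxd followed by a number, out of 21951 protein-coding genes. They were chosen by name only, and counts over the family include all 39. The Hoxa cluster holds 11 of them on chromosome 6, Hoxb holds 10 on chromosome 11 (96194316 to 96368256, GRCm38), Hoxc holds 9 on chromosome 15 (102921103 to 103036852) and Hoxd holds 9 on chromosome 2 (74668310 to 74765142). In each of 8 ATAC-seq libraries, the peaks no further than 1 kb from a transcription start site (TSS) of these genes and those elsewhere between the first and last gene of each cluster were collected.

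ATAC-seq, in which the Tn5 transposase inserts adapters into open chromatin, was done on cultured cells derived from mammary tumors of PyMT mice, strain FBV/N as labelled, in which the mammary tumor virus promoter (MMTV) drives the polyoma middle T oncogene. Cultures were WT or Lats1-CKO, in which Lats1, a kinase of the Hippo pathway, was deleted conditionally (the Cre driver is not given in the sources used here). Both were sorted by FACS into luminal cells (EpCAM-high; CD49f-high) and basal-like cells (EpCAM-low; CD49f-high), which were expanded briefly in culture before the assay. Each genotype thus gave a luminal and a basal-like group, and each of the 4 groups had 2 libraries, numbered here 1 and 2 with no pairing implied. All groups carried the oncogene and all were cultured, so no normal mammary cells were included. The sources do not say how the 2 libraries of a group were separated beyond calling them biological replicates, so the p-values measure the spread between these libraries. Tests of genotype pooled luminal and basal-like libraries, and tests of population pooled both genotypes. The p-values treat the 4 libraries on a side as exchangeable and so also take in the difference between the pooled groups. Luminal and basal-like cells of a genotype may share cultures, so these 4 may not be independent.

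Hox genes encode homeodomain transcription factors that give cells their position along the body axis, and their order along each cluster mirrors the order in which they are used from head to tail. Genes of the same number in different clusters are paralogs. In cells that do not use them the clusters are held by Polycomb proteins in a compact state, and boundaries inside the clusters are often bound by CTCF. HOX proteins bind DNA together with cofactors of the PBX and MEIS families, and several Hox genes are used in the mammary epithelium and its stroma.

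The libraries differed in size. Lats1-CKO luminal 1 held 14753 peaks and the other 7 held between 51497 and 99022. Lats1-CKO luminal 1 also had the lowest value, alone or shared, in most counts of peaks below. Each peak carries a score that grows with sequencing depth, so it was converted to a percentile among the peaks of its own library, where 100 is the strongest peak. The lists hold no read counts. Where no peak is listed, none passed the caller, and a site open in fewer cells cannot be told apart from one that is less open in each cell. A peak lay at the TSS of Lats1 itself in every library except Lats1-CKO luminal 1, at percentiles of 53.6 to 62.4 in WT and 74.7 to 81.5 in the other Lats1-CKO libraries. A promoter peak does not show whether the deleted part of the gene is present. Of the 12 basal markers, Trp63 and Actg2 had a TSS peak in no library and Krt5 and Krt17 had none in any basal-like library. Krt14, Itga6, Lgr5 and Mme had one in all 8 libraries. The basal-like label used here is that of the gate. The study also compared the sorted cells by expression, accessibility and staining of keratins. Basal markers with a TSS peak numbered 5 to 7 of 12 in basal-like and 4 to 8 in luminal libraries.

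The sequences of 4 regions are printed to show what the more often opened elements of the clusters look like outside the TSS windows. In Hoxb, Hoxc and Hoxd they are the region found in most libraries, and in Hoxa an intronic region of Hoxa3 found in 5 libraries. All are on the plus strand of GRCm38, in lower case, with capitals marking a match to a searched motif. The Hoxb8 upstream region holds a CTCF match and the Hoxd3os1 region a TEAD match. The printed stretches of the Hoxa3 intron region and the Hoxc8 upstream region hold none of the motifs, while the 300 bp around their centres, the windows counted further on, also take in a TEAD match and an E-box match, respectively.
Hoxa3 intron region, chr6:52211668-52211861: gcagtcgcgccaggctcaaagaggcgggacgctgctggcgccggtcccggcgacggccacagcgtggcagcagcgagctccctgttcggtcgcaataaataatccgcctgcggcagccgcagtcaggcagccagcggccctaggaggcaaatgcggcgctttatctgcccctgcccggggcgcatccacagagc
Hoxb8 upstream region, chr11:96278899-96279025: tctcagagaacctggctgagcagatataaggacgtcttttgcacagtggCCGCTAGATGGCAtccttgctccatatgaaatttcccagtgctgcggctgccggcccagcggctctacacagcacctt
Hoxc8 upstream region, chr15:102987518-102987718: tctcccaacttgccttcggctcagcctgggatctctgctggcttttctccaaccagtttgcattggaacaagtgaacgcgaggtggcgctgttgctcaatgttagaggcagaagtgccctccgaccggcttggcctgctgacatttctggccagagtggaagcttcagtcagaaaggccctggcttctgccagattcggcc
Hoxd3os1 region, chr2:74715817-74716044: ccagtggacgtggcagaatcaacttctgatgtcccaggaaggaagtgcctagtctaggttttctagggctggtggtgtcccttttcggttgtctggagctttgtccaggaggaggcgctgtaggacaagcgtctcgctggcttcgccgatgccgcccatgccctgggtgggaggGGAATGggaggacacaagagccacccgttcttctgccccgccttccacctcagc

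Most Hox promoters had no peak. Of the 39 genes, 21 had no TSS peak, 1 kb or less from any of their start sites, in any library, which is 53.8% of the family against 33.6% of all protein-coding genes. Another 9 Hox genes, or 23.1%, had a TSS peak in a single library, against 5.04% of all genes. In every library the Hox TSS peaks ranked lower than those of all genes, with a median percentile of 29.9 to 67.0 across libraries against 65.7 to 84.4 for all genes with a TSS peak. Within 5 kb the picture differed, and 32 of the 39 genes (82.1%) had a peak in at least 1 library against 77.6% of all genes. In these compact clusters the 5 kb windows of neighbouring genes overlap, so the same peak can be counted for several Hox genes. Hoxd3 and Hoxd4, for example, share a region. The share is therefore not directly comparable with that of all genes.

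**Figure D1:**
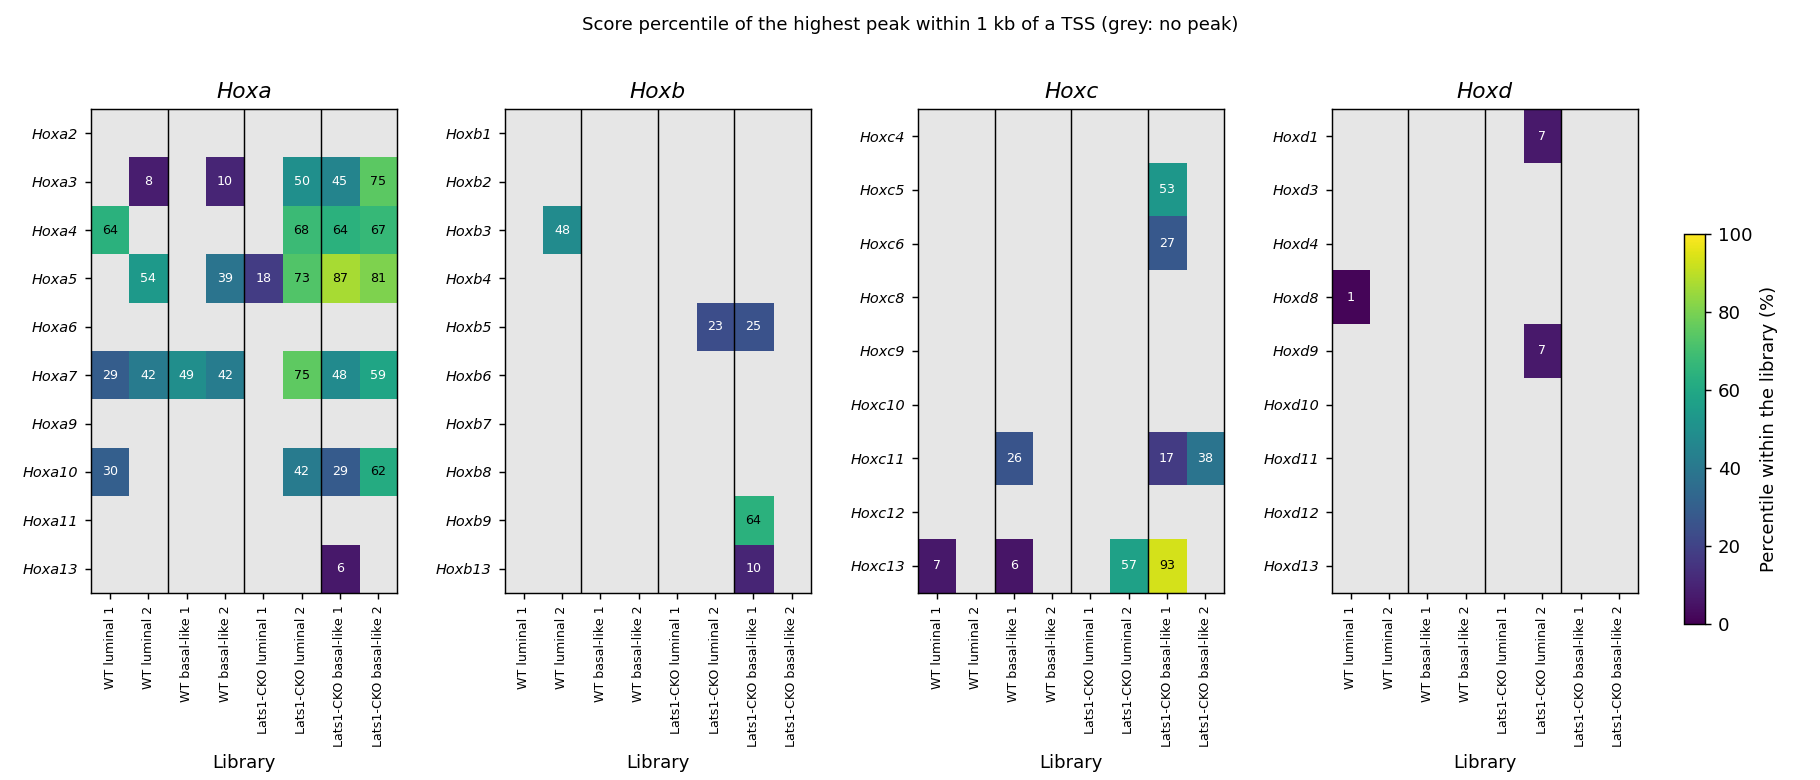
Score percentile within the library of the highest peak within 1 kb of a TSS, for 38 of the 39 Hox genes (rows, by cluster and paralog number) in each of the 8 libraries (columns, by group). Grey cells have no peak. Hoxa7 is coloured in 7 columns and Hoxa5 in 6, while most rows of Hoxb, Hoxc and Hoxd are grey.

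Among the anterior genes of the cluster, Hoxa3 had a TSS peak in 2 of 4 WT and 3 of 4 Lats1-CKO libraries, and Hoxa4 in 1 and 3. Hoxa3 (ENSMUSG00000079560, 52169062 to 52213336), a regulator of thymus and neck organ formation, had no peak in WT luminal 1, WT basal-like 1 or Lats1-CKO luminal 1. Its peak was at 8.20 in WT luminal 2 and 10.3 in WT basal-like 2, and at 49.98, 45.1 and 74.8 in Lats1-CKO luminal 2 and Lats1-CKO basal-like 1 and 2. The Hoxa3 peaks did not fall on a single start site: in Lats1-CKO luminal 2 and basal-like 2 the highest lay at the most upstream TSS of the gene, and in the other 3 libraries at downstream ones. Hoxa4 (ENSMUSG00000000942, 52189671 to 52191753) had a peak at 63.8 in WT luminal 1, and at 68.2, 64.0 and 67.0 in Lats1-CKO luminal 2 and Lats1-CKO basal-like 1 and 2. The other 3 WT libraries and Lats1-CKO luminal 1 had none. Between genotypes (Lats1-CKO minus WT, two-sided exact permutation test) the mean percentile differed by 37.9 points for Hoxa3 and 33.9 points for Hoxa4, each with p = 0.143, and the groups overlapped because of Lats1-CKO luminal 1.

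Hoxa5 and Hoxa7 belong to the middle of the cluster. Hoxa5 (ENSMUSG00000038253, 52201754 to 52204587), needed for lung and mammary gland development, had no peak in WT luminal 1 or WT basal-like 1. It was at 54.0 in WT luminal 2, 38.7 in WT basal-like 2, 17.9 and 73.0 in Lats1-CKO luminal 1 and 2, and 87.0 and 80.6 in Lats1-CKO basal-like 1 and 2. Its 3 highest values were those of the larger Lats1-CKO libraries, and the difference between genotypes was 41.5 points (exact p = 0.114).
Hoxa7 (ENSMUSG00000038236, 52214491 to 52221854) was open in 7 libraries. It ranked at 29.4 and 41.6 in WT luminal 1 and 2, 49.3 and 42.1 in WT basal-like 1 and 2, 75.4 in Lats1-CKO luminal 2, and 47.7 and 58.8 in Lats1-CKO basal-like 1 and 2. The WT and Lats1-CKO values overlapped, with a difference of 4.87 points (exact p = 0.771). In Lats1-CKO basal-like 1 the highest Hoxa7 peak lay at another start site of the gene, while a peak at 45.5 covered the TSS used in the other 6.

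Of the posterior Hoxa genes, Hoxa10 (ENSMUSG00000000938, 52231197 to 52240854), known for its role in the uterus, was at 30.3 in WT luminal 1, 41.6 in Lats1-CKO luminal 2, and 28.8 and 61.6 in Lats1-CKO basal-like 1 and 2, with no peak in the other 4 libraries. Its difference between genotypes was 25.4 points (exact p = 0.257). Hoxa13 had a single peak, at 6.35 in Lats1-CKO basal-like 1. Hoxa2, Hoxa6, Hoxa9 and Hoxa11 had no TSS peak in any library. Hoxa6 and Hoxa9 did have one within 5 kb in 7 libraries, in peaks beyond their own TSS windows, and Hoxa11 had none even there.

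The other clusters had few TSS peaks. In Hoxb, Hoxb5 had a peak in Lats1-CKO luminal 2 and Lats1-CKO basal-like 1, and Hoxb3, Hoxb9 and Hoxb13 in 1 library each. Hoxb1, Hoxb2, Hoxb4, Hoxb6, Hoxb7 and Hoxb8 had none. In Hoxd, Hoxd1, Hoxd8 and Hoxd9 had a peak in 1 library each, and Hoxd3, Hoxd4, Hoxd10, Hoxd11, Hoxd12 and Hoxd13 in none.

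In Hoxc the posterior genes were open most often. Hoxc11 (ENSMUSG00000001656, chromosome 15, 102954427 to 102957708, plus strand) had a peak in basal-like libraries only, at 25.9 in WT basal-like 1 and at 17.3 and 38.3 in Lats1-CKO basal-like 1 and 2. WT basal-like 2 had none, so the populations overlapped, and the difference of 20.4 points had an exact p = 0.143. Hoxc13 (ENSMUSG00000001655, 102921103 to 102928814), a regulator of hair keratins, was at 6.57 in WT luminal 1, 5.73 in WT basal-like 1, 57.4 in Lats1-CKO luminal 2 and 93.5 in Lats1-CKO basal-like 1. That last value was the highest of any Hox TSS in any library, while Lats1-CKO basal-like 2 had no Hoxc13 peak, so the libraries of that group went apart. Hoxc5 and Hoxc6 had a peak in Lats1-CKO basal-like 1 alone, and Hoxc4, Hoxc8, Hoxc9, Hoxc10 and Hoxc12 in no library.

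Counted over genes and libraries together, a TSS peak was found in 35 of 88 pairs in Hoxa (39.8%), 9 of 72 in Hoxc (12.5%), 5 of 80 in Hoxb (6.25%) and 3 of 72 in Hoxd (4.17%). Without Lats1-CKO basal-like 1 the share was 7.94% in Hoxc and 2.86% in Hoxb, and without Lats1-CKO luminal 2 it was 1.59% in Hoxd. By paralog number, it was found in 19.8% of pairs for the anterior genes (numbers 1 to 4), 20.5% for the central genes (5 to 8) and 11.7% for the posterior genes (9 to 13). The shares differed less by position than by cluster. Inside Hoxa the shares were 53.1%, 54.2% and 15.6%. Across libraries the SD of the share was 16.8 percentage points for Hoxa and 8.27 to 15.1 for the other clusters.

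The number of Hox genes with a TSS peak was 6 and 5 in WT luminal 1 and 2, 4 and 4 in WT basal-like 1 and 2, 2 and 10 in Lats1-CKO luminal 1 and 2, and 14 and 7 in Lats1-CKO basal-like 1 and 2. Every WT library lay between 4 and 6, and the Lats1-CKO libraries held both the lowest and the highest values. The mean was 4.75 ± 0.957 in WT and 8.25 ± 5.06 in Lats1-CKO (SD, n = 4 each), and 10.3 ± 3.51 in Lats1-CKO without Lats1-CKO luminal 1 (n = 3). The difference of 3.5 genes (Lats1-CKO minus WT) was 5.58 without that library, 1.58 without Lats1-CKO basal-like 1, and 0.75 when each library was cut to its 10000 strongest peaks. Among peaks at or above the median score of their library it was 3. Between populations the mean was 5.75 ± 3.30 in luminal and 7.25 ± 4.72 in basal-like libraries (SD, n = 4 each). That difference of 1.5 genes (basal-like minus luminal) turned to -0.75 without Lats1-CKO basal-like 1 and to -0.25 on the 10000 strongest peaks, and was 0.25 without Lats1-CKO luminal 1 or with a window of 200 bp. With peaks at or above the median score it was 0.5. Over all protein-coding genes the share with a TSS peak was 53.8% ± 3.06 in WT and 51.9% ± 11.7 in Lats1-CKO (SD, n = 4 each), and 57.7% ± 1.03 in the 3 larger Lats1-CKO libraries.

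**Figure D2:**
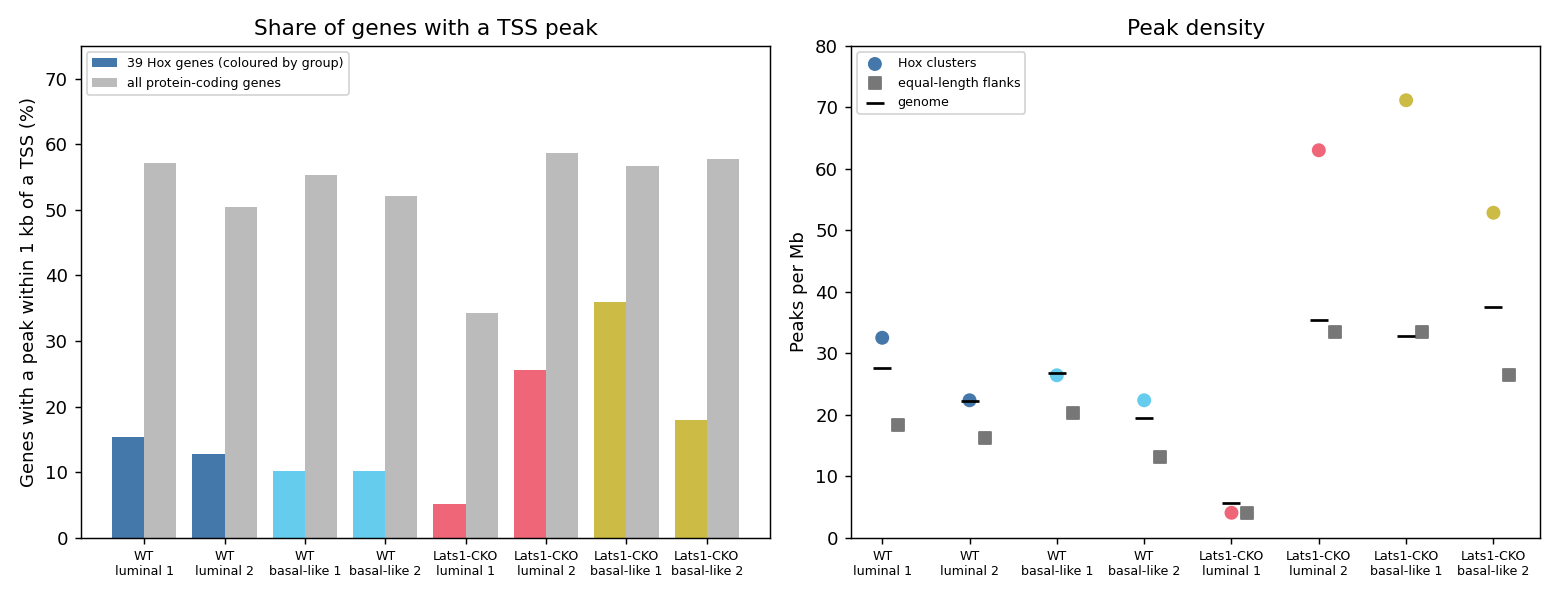
Left, share of the 39 Hox genes (coloured by group) and of all protein-coding genes (grey) that had a TSS peak, 1 kb or less away, in each library. Right, peaks per Mb in the Hox clusters (circles), in flanks of the same length on either side (squares, shifted to the right) and in the genome (bars). The circles of Lats1-CKO luminal 2 and Lats1-CKO basal-like 1 and 2 lie at 52.9 to 71.2 peaks per Mb and those of the WT libraries at 22.4 to 32.5.

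Over the 492 kb of the clusters there were 32.5 and 22.4 peaks per Mb in WT luminal 1 and 2, 26.4 and 22.4 in WT basal-like 1 and 2, 4.07 and 63.0 in Lats1-CKO luminal 1 and 2, and 71.2 and 52.9 in Lats1-CKO basal-like 1 and 2. Relative to the genome of the same library, density was 0.988 to 1.18 times in WT and 1.41, 1.78 and 2.17 times in Lats1-CKO basal-like 2, luminal 2 and basal-like 1. Lats1-CKO luminal 1 stood at 0.726 times on 2 peaks. Against the flanks of the clusters the ratio was 1.30 to 1.78 in WT and 1.88 to 2.12 in the 3 larger Lats1-CKO libraries, so the ranges were closer there. The 3 larger Lats1-CKO libraries also had the most peaks of all 8. With each library cut to its 10000 strongest peaks, the difference between genotypes in peaks outside the TSS windows was 0.25 in place of 5, and 37 of the 39 genes had no TSS peak in any library. Among peaks at or above the median score of their library that difference was 4, and 29 genes had no TSS peak.

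No Hox gene was called between groups. A gene was called when the TSS percentiles of the 4 libraries on one side all lay above those on the other. Among the 14571 genes with a TSS peak in at least 1 library, 0.398% were higher in every Lats1-CKO library and 0.721% in every WT library, and of the 18 Hox genes tested 0 were called in either direction. Between populations 0.727% of genes were higher in every basal-like library and 0.206% in every luminal library, again with 0 of the 18 Hox genes. With 4 libraries against 4 the smallest p of the exact test is 0.0286, and 163 genes for genotype and 136 for population had an unadjusted p under 0.05. After Benjamini-Hochberg adjustment the smallest adjusted p was 1, so 0 of all genes passed.

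These calls turned on Lats1-CKO luminal 1. Without it, Hoxa3, Hoxa4 and Hoxa5 were higher in each of the 3 remaining Lats1-CKO libraries than in every WT library, which is 16.7% of the 18 Hox genes tested. Over all genes tested the share was 10.3% in that comparison. The 3 neighbouring genes are read against that background, which was itself raised by leaving out this library. No gene passed adjustment in that comparison (smallest Benjamini-Hochberg adjusted exact p = 0.617). The margin for Hoxa4 was narrow, at 64.03 in Lats1-CKO basal-like 1 and 63.78 in WT luminal 1. For Hoxa3 the values compared are those of different start sites, as described above. With its principal transcripts only and all 8 libraries, the Hoxa3 difference between genotypes was 31.2 points (exact p = 0.429).

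The 145 peaks in the clusters came from 60 merged regions, 27 of them within 1 kb of a Hox TSS and 33 elsewhere. No peak lay within 1 kb of the TSSs of more than 1 Hox gene. Of the 60 regions, 29 (48.3%) were found in a single library, against 44.5% of all 183173 merged regions, and 1 (1.67%) in all 8, against 5.95%. Lats1-CKO basal-like 1 alone held 13 of the 29, with 6 in Hoxc and 5 in Hoxb, and these made up 37.1% of its Hox regions against 23.8% of all its regions. In WT luminal 2, 5 of 11 Hox regions (45.5%) were found nowhere else, against 20.9% of all its regions.

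Called in the same way, 0 of the 60 regions separated the groups. Over all merged regions 0.0628% were higher in every Lats1-CKO library, 0.34% in every WT library, 0.527% in every basal-like library and 0.0502% in every luminal library. The smallest adjusted p was 1, and 737 and 1057 regions had an unadjusted p under 0.05 for genotype and population. Without Lats1-CKO luminal 1, 9 of the 60 Hox regions (15%) were higher in all remaining Lats1-CKO libraries than in every WT library, against 5.55% of all regions. Of these 9, 5 were in Hoxa, 2 in Hoxb and 2 in Hoxd. No region passed adjustment in that comparison (smallest Benjamini-Hochberg adjusted exact p = 0.675). Among the 9, the margin was narrow at the Hoxa4 TSS and for the Hoxd3os1 region. The latter was at 60.5 in Lats1-CKO luminal 2 and 59.4 in WT luminal 2.

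**Figure D3:**
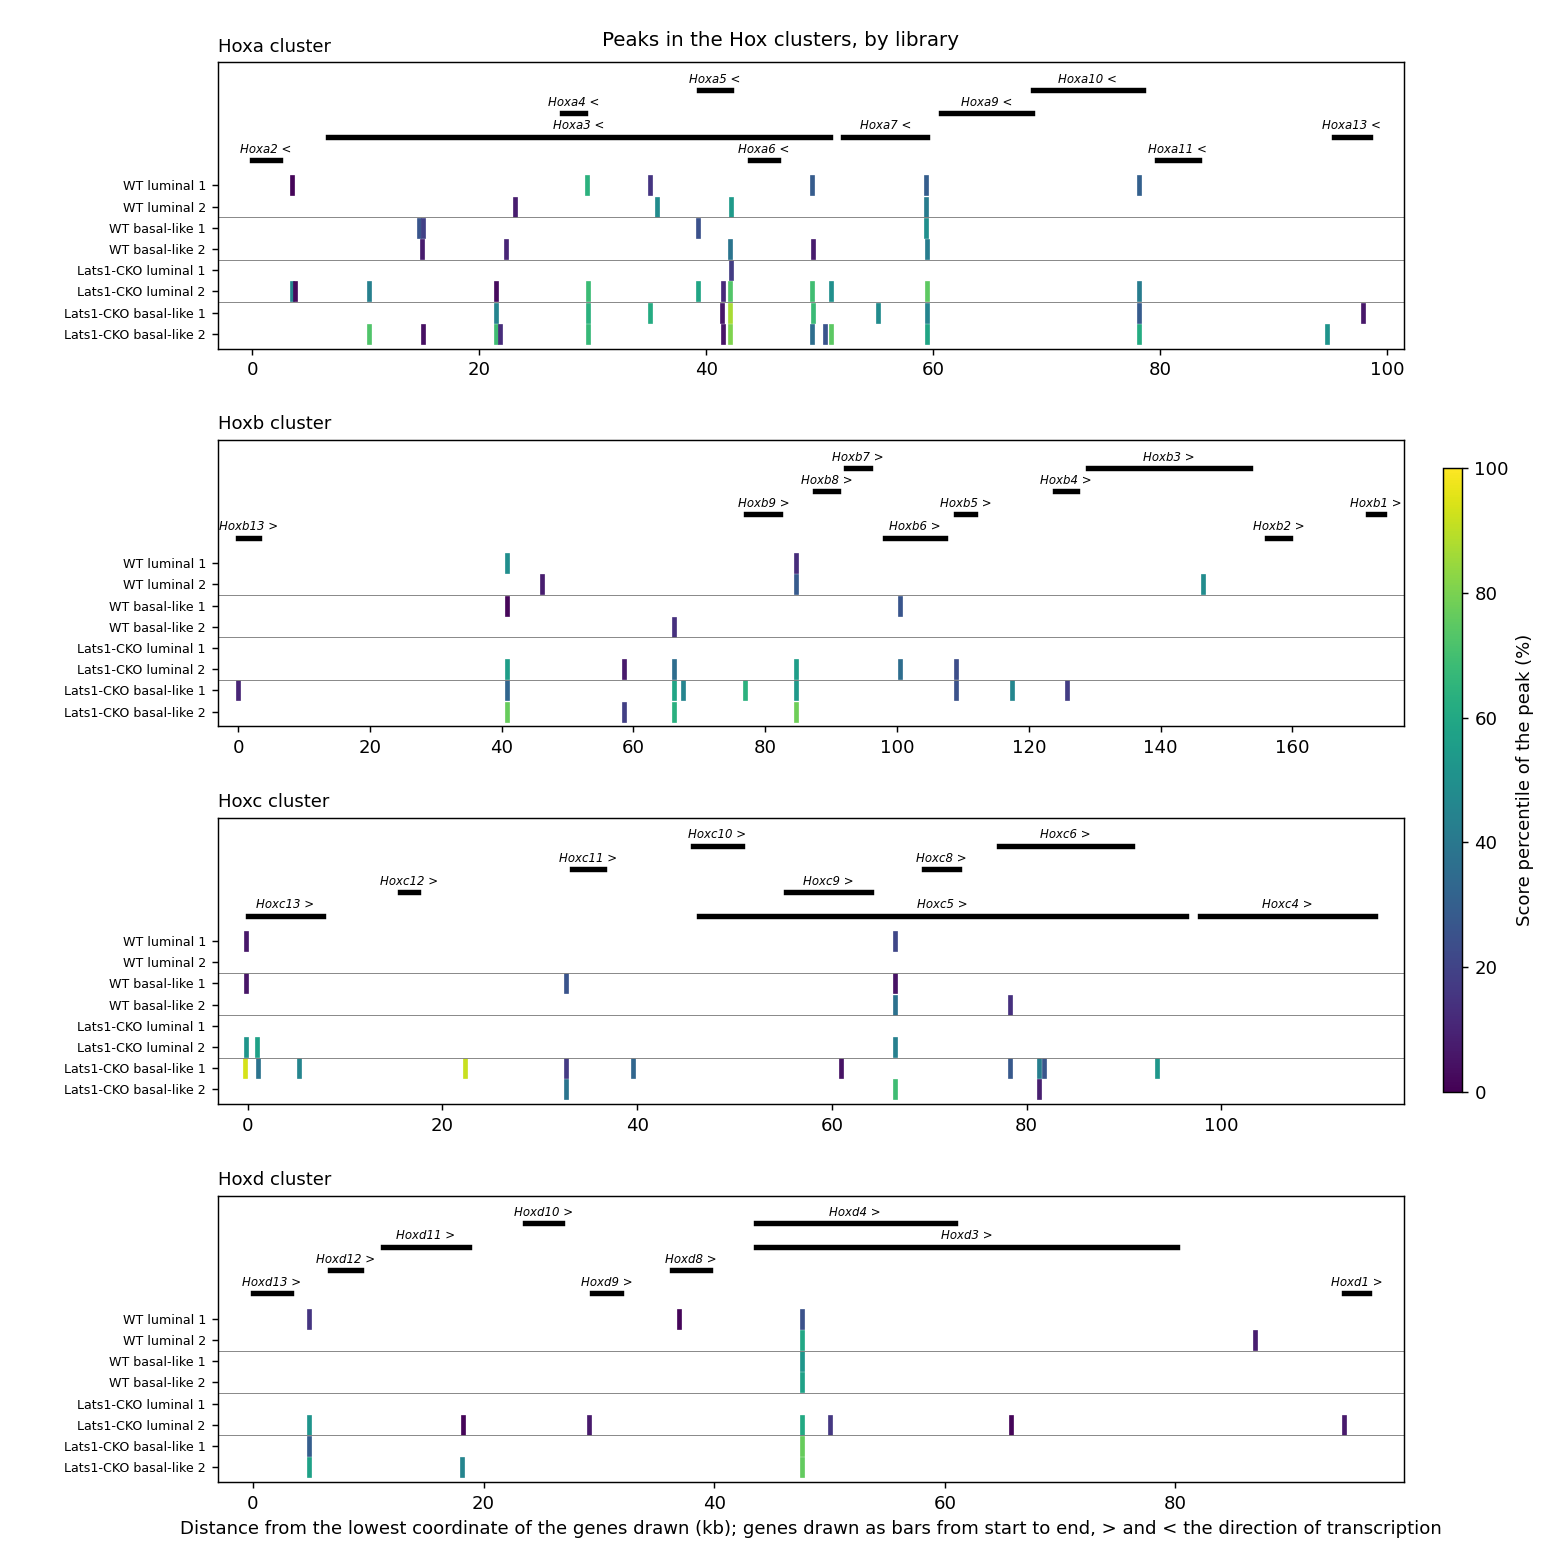
Peaks along each cluster in each library, drawn at their centre and coloured by score percentile, against the distance in kb from the lowest coordinate of the genes drawn. Black bars are 38 of the 39 genes with the direction of transcription, and peaks nearest to the other one are not drawn. Peaks of the Hoxa cluster line up over Hoxa5 and Hoxa7, and the longest column below Hoxd3 and Hoxd4 holds a peak in 7 of 8 libraries.

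Outside the TSS windows there were 9 and 5 peaks in WT luminal 1 and 2, 8 and 6 in WT basal-like 1 and 2, 0 and 17 in Lats1-CKO luminal 1 and 2, and 17 and 14 in Lats1-CKO basal-like 1 and 2. The mean was 7 ± 1.83 in WT and 12 ± 8.12 in Lats1-CKO (SD, n = 4 each), and 16 ± 1.73 without Lats1-CKO luminal 1 (n = 3). The difference of 5 peaks between genotypes was 9 without that library and 3.33 without Lats1-CKO basal-like 1 or without Lats1-CKO luminal 2. The mean was 7.75 ± 7.18 in luminal and 11.3 ± 5.12 in basal-like libraries, and this difference of 3.5 peaks was 0.917 without Lats1-CKO luminal 1, 1.58 without Lats1-CKO basal-like 1, 6.58 without Lats1-CKO luminal 2 and 0.25 on the 10000 strongest peaks. With peaks at or above the median score it was 2.5. WT stayed below every Lats1-CKO library other than Lats1-CKO luminal 1.

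The most recurrent element outside a TSS window was in Hoxd, at chr2:74715817-74716044, 4001 bp downstream of a Hoxd4 TSS and in an exon of the antisense transcript Hoxd3os1, within 1 kb of whose own start it lay. It was open in 7 libraries, at 25.3 and 59.4 in WT luminal 1 and 2, 52.6 and 57.4 in WT basal-like 1 and 2, 60.5 in Lats1-CKO luminal 2, and 76.8 and 76.1 in Lats1-CKO basal-like 1 and 2. The 3 Lats1-CKO values were the highest, and the groups overlapped because of Lats1-CKO luminal 1 (exact p = 0.857 between genotypes). Hoxd3 and Hoxd4, which had no TSS peak, had this region within 5 kb. The other recurrent Hoxd elements lay 1857 bp upstream of a Hoxd12 TSS, in 4 libraries, and in an exon of a non-coding Hoxd11 transcript, in 2.

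In Hoxb, a region 2943 bp upstream of Hoxb8 (chr11:96278899-96279025, intergenic) was found in both WT luminal libraries, at 12.5 and 28.5, and in neither WT basal-like library. It was at 55.7 in Lats1-CKO luminal 2 and at 53.9 and 77.9 in Lats1-CKO basal-like 1 and 2. The Lats1-CKO values exceeded the WT values except in Lats1-CKO luminal 1, where it was absent (exact p = 0.143). A region 36333 bp upstream of Hoxb9, in the long gap before Hoxb13, was also found in 5 libraries, and 1 in an intron of the lincRNA Gm53 in 4.

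In Hoxa, the intronic region of Hoxa3 (chr6:52211668-52211861) was at 28.6 in WT luminal 1, 7.61 in WT basal-like 2, 69.4 in Lats1-CKO luminal 2 and 67.8 and 35.8 in Lats1-CKO basal-like 1 and 2. In Hoxc, the region 2989 bp upstream of Hoxc8 was at 21.1 in WT luminal 1, 4.87 and 37.5 in WT basal-like 1 and 2, 43.3 in Lats1-CKO luminal 2 and 68.8 in Lats1-CKO basal-like 2. It was absent from Lats1-CKO basal-like 1, the library with the most Hoxc peaks (11 against 3 or fewer in every other library). The next Hoxc regions were found in 2 libraries and in 1. Another Hoxa region, in a UTR of 5730596B20Rik, was found in 3 libraries at 4.05 to 18.9.

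**Figure D4:**
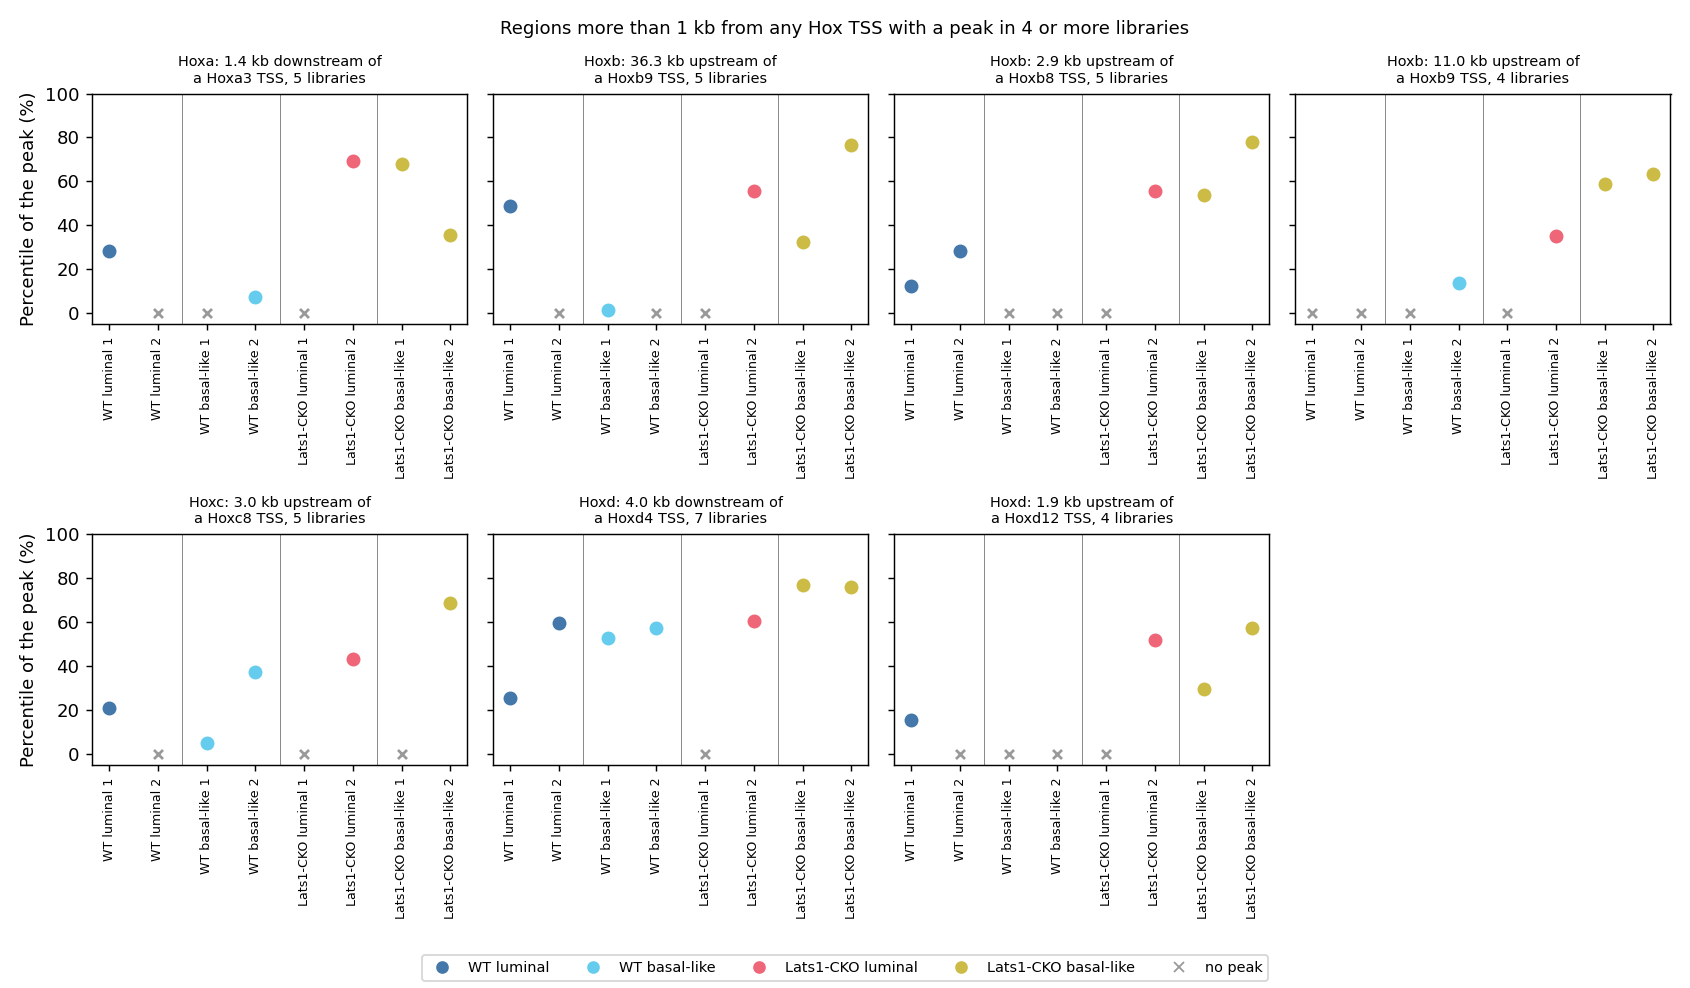
Score percentile in each library of 7 regions more than 1 kb from any Hox TSS that were found in 4 or more libraries, coloured by group, with crosses at 0 where no peak was called. Every panel has a cross for Lats1-CKO luminal 1, and the panel 4.0 kb downstream of a Hoxd4 TSS has points in the other 7.

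Non-coding genes of the clusters shared these peaks. Of 43 such genes, 14 had a TSS peak in at least 1 library. Hoxd3os1 had one in 7. The genes that border the clusters differed from the Hox genes. Skap2, Smug1, Calcoco1, Cbx5, Mtx2 and Lnpk had a TSS peak in all 8 libraries, Ttll6 in 1, at 5.71 in Lats1-CKO basal-like 1, and Skap1, Calcoco2 and the homeobox genes Evx1 and Evx2, which neighbour Hoxa13 and Hoxd13, in none.

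The Hox regions were rich in CpG. In the central 300 bp the median GC content was 57.2% against 48.3% of all merged regions, and the median ratio of observed to expected CpG was 0.580 against 0.195. The AP-1 motif TGANTCA was present in 13.3% of Hox regions and 29.5% of all regions, and the E-box CAGGTG in 6.67% and 19.4%. The TEAD motif GGAATG, bound by the partners of the Hippo effector YAP, was present in 20% and 21.03%. The HOX-PBX motif TGATNNAT was in 16.7% and 11.9%. It was in 29.6% of the 27 regions within 1 kb of a Hox TSS and in 6.06% of the 33 elsewhere. In those 33 regions the median GC content was 53.7%, the median CpG ratio 0.481, and the AP-1 motif was in 18.2%. The Hox regions and all regions were not matched for distance to a TSS. A CTCF motif match was found in 1 of the 60 regions, the printed Hoxb8 upstream region, or 1.67% against 5.91% of all regions. Allowing 1 mismatch, a setting chosen after seeing the data, gave 20% against 15.8%. All motifs were searched on both strands, and a match is a description of letters and not of binding.

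RefSeq promoter sequences (GRCm38) were matched for 22 of the 39 Hox genes, with 24 promoters. Their median GC content was 57.7% against 52.7% over 32851 promoters. The HOX-PBX motif was in 4 of the 24 (16.7%) against 8.85% of all, the TEAD motif in 8.33% against 14.7%, and the E-box in 0 against 20.2%. Among promoters of Hox genes with a TSS peak in no library, the HOX-PBX motif was in 4 of 15. Among those of Hox genes with a TSS peak in 3 or more libraries it was in 0 of 5.

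Genes that work with or on the Hox genes differed by list. The HOX cofactors of the TALE class (the PBX, MEIS and PREP families) had a TSS peak in 6 to 9 of 9 genes per library. The Polycomb genes, which silence Hox clusters, had one in 10 to 15 of 15, and the trithorax group and the enzymes of H3K27 and H3K79, which act the other way or on the same residues, in 8 to 11 of 11. Genes of the upstream signals (retinoic acid and the CDX factors, with Gdf11 and Ctcf) had one in 3 to 7 of 12. Within that list Gdf11 had a TSS peak in 7 libraries and Ctcf in 8. Cdx1, Cdx2 and Cdx4, the direct activators of Hox genes in the embryo, had one in no library. In each of these lists 0 genes were called between genotypes or between populations, against 0.206% to 0.727% of all genes tested, depending on the direction. The lowest count of each list was that of Lats1-CKO luminal 1, shared with WT luminal 2 for the cofactors.

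More fibroblast markers had a TSS peak in basal-like than in luminal libraries. The cultures were washed to detach fibroblasts when they were made. By single-cell mass cytometry of cultures before sorting, the study reported more cells that it defined as fibroblasts in Lats1-CKO cultures, to a varying extent. How many were present in the sorted libraries is not known here. Of 12, 3 had a TSS peak in each luminal library other than Lats1-CKO luminal 1, which had 1, and 4 to 9 in the basal-like libraries, with 9 in Lats1-CKO basal-like 1, which also had the most Hox genes. Their summed percentile was 61.3 to 169.9 in luminal and 220.3 to 470.7 in basal-like libraries. Pdgfra and Pdgfrb, 2 of the 10 tested, were higher in every basal-like library, against 0.727% of all genes tested, and neither passed after adjustment. For Pdgfra the margin was narrow, at 78.68 in WT basal-like 1 and 78.67 in WT luminal 1, with no peak in Lats1-CKO luminal 1. Col3a1 and Lum had no TSS peak in any library, and Col1a2, Thy1, Postn and Twist2 had none in any luminal one. Of 10 immune markers, 0 to 5 had a peak in luminal and 1 to 7 in basal-like libraries, and of 8 endothelial markers 0 to 4 and 2 to 5. Cd3e, Cd79a, Itgam, Cdh5 and Emcn had none in any library. Of 14 luminal markers 6 to 13 had a peak per library. Krt18 and Cldn3, 2 of the 13 tested, were called as higher in every WT library, against 0.721% of all genes tested. Neither passed after adjustment, and the absence of a Krt18 peak in Lats1-CKO luminal 1 counts toward its call. Lats1-CKO luminal 2, with 10 Hox genes, had 3 fibroblast markers with a peak, as many as the WT luminal libraries. The part of these cell types in the Hox peaks was not tested.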

How the data were processed

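ATAC-seq libraries of 4 groups were compared through the peak lists that the authors deposited, 1 per library. The submitters' processing notes name cutadapt, Bowtie 1.0.0, Picard 2.3.0 and MACS2 2.1.1.20160309 with mm10. The study's methods name another MACS2 version, and give no options. The deposited score of each peak, at least 13 in every library, is used here as a MACS2 score. The study discarded 1 Lats1-CKO luminal replicate for quality when replicates were combined, without naming it. All 8 libraries were kept here, and leaving out each of them was an alternative. The depth of each library is unknown, and no counting interval can be given.

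The score was turned into a percentile within each library. For a gene, the highest peak within 1 kb of any GENCODE M21 TSS was used, with absence as 0. Overlapping or touching peaks were merged across libraries into 183173 regions. Peaks within 1 kb of the end genes were counted with the clusters, and flanks began outside them. Genotypes and populations were compared by a two-sided exact permutation test on every protein-coding gene with a peak and on every region, with Benjamini-Hochberg adjustment over all of them. The test was checked on simulated data. Counts over the family were not tested.

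Alternatives were windows of 5 kb and 200 bp, the 10000 highest-scoring peaks, peaks at or above the median score, principal transcripts only, presence or absence, bases in peaks, and each library left out. Hox members were taken by symbol alone, but they and the gene lists were chosen with earlier results of these data known. Percentiles are given for each Hox gene with a TSS peak in 3 or more libraries, and the other genes by counts. The values of 1 member, and of regions next to it, are not reported here. Outside the TSS windows the 3 regions found in most libraries are described for each cluster, ties by the highest median percentile, and sequences come from regions without a UTR. Genes of the lists are named where the groups do not overlap, or as neighbours of the clusters. Python 3.11.15, numpy 2.4.6, scipy 1.17.1, matplotlib 3.10.9 and samtools 1.23.1 were used, and sequences are from GRCm38.p6 and RefSeq.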

Additional observations from a re-analysis of the deposited data

Results flagged for a closer look

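Among 44 sets of 4 libraries of a genotype or population, 6 had a value far from the other 3. Chance gives about 1 in 20, and many of these sets hold small whole numbers in which the other 3 values are equal. WT basal-like 1 had a TSS peak at 2 Hoxa genes where the other WT libraries had 4. Lats1-CKO basal-like 1 had 11 peaks in the Hoxc cluster, against 2 or 3 in the other basal-like libraries, and a TSS peak at 3 Hoxb genes where the other basal-like libraries had 0. WT luminal 2 was alone among the WT libraries in having a Hoxb gene with a TSS peak (1), and WT luminal 1 in having a Hoxd gene (1). Lats1-CKO luminal 2 had 2 Hoxd genes with a TSS peak and the other Lats1-CKO libraries 0.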

How the results depend on the processing

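With a window of 5 kb, 7 Hox genes had no TSS peak, and the share of gene and library pairs with one rose to 64.8% in Hoxa, 18.8% in Hoxb, 25% in Hoxc, 38.9% in Hoxd, 43.8% for anterior, 46.6% for central and 27.3% for posterior genes. When each library was cut to its 10000 strongest peaks, 37 Hox genes had none, 0 had one in all libraries, and the shares were 2.27% in Hoxa, 1.39% in Hoxc, 0% in Hoxb and Hoxd, 2.08% for anterior, 0% for central and 0.78% for posterior genes. Among peaks at or above the median score the shares were 23.9% in Hoxa, 2.5% in Hoxb, 4.17% in Hoxc, 0% in Hoxd, 7.95% for central and 3.13% for posterior genes. A 200 bp window gave 5.56% in Hoxc and 7.03% for posterior genes, and principal transcripts 25% in Hoxa and 12.5% for central genes. The mean number of Hox genes with a TSS peak differed by 5.5 (Lats1-CKO minus WT) and 4.5 (basal-like minus luminal) at 5 kb and by 2.25 and 0.25 at 200 bp, and that of peaks elsewhere by 1.75 and 2.25 and by 7.75 and 5.75. By presence or absence alone 0 Hox genes were called, and the share of all genes called in that way was not computed. Allowing 1 mismatch in the CTCF motif raised its share of Hox regions from 1.67% to 20%. These alternatives use other windows, fewer peaks or a looser motif by construction.

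Leaving out 1 library at a time, the number of called Hox genes was 0 to 3 between genotypes (3 without Lats1-CKO luminal 1) and 0 to 1 between populations (Hoxc11 without WT basal-like 2, against 2.23% of all genes, and Hoxa7 without Lats1-CKO luminal 2, against 4.05%). Of the Hox regions it was 0 to 9 between genotypes (9 without Lats1-CKO luminal 1) and 0 to 2 between populations (alternatives for regions were chosen after seeing the data; 2 or 3.39% without WT basal-like 2, against 2.31% of all regions, 1 or 2.13% without Lats1-CKO basal-like 1, against 0.802%, and 1 or 1.82% without Lats1-CKO luminal 2, against 2.22%). Hox genes with a TSS peak in all libraries numbered 1 to 2 (2 without Lats1-CKO luminal 1).

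The difference of TSS percentiles (basal-like minus luminal) changed sign for Hoxa7 with peaks above the median (-8.47). Without 1 library it ran from -11.6 to 11.5 for Hoxa4, -8.37 to 12.5 for Hoxa10 and -14.1 to 22.6 for Hoxc13. Between genotypes (Lats1-CKO minus WT) it ran from -5.10 to 20.03 for Hoxa7 and -0.72 to 13.9 for Hoxc11. With all libraries none of the 14 differences had an exact p under 0.05, and without 1 library Hoxa3 (genotypes), Hoxa7 and Hoxc11 (populations) reached the smallest p, 0.0286. The cause was not tested. Over 14 gene differences and their alternatives, 150 of 164 values kept their direction and their side of 0.05. Bases in peaks elsewhere in the clusters were on average 900.8 more in Lats1-CKO than in WT and 739.3 more in basal-like than in luminal libraries. The depth of the libraries is unknown, so a peak missing from Lats1-CKO luminal 1, which has the fewest peaks, does not show a closed site. No paired analysis was possible because the labels give no replicate numbers.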
